A study of Homo sapiens with 84 samples.

Results

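The comparison described here was that of the dose of epidermal growth factor (EGF) at 6 h in Kyse30, an established human line of esophageal squamous cell carcinoma. It set the 4 libraries of cells treated with 9 nM EGF (EGFhigh) against the 4 libraries of cells treated with 1.8 nM EGF (EGFlow), chosen by the dose and time in the sample titles. These were 8 of the 43 Kyse30 libraries and of the 84 libraries of the series, and all genes were compared. All Kyse30 cultures had been deprived of serum before treatment, and treatments were carried out without serum. The study asked about EMT (epithelial-to-mesenchymal transition) mediated by EGFR, and the 2 doses allow its early genes to be compared at strong and weak stimulation. Cells left untreated for 6 h (n = 3) served as the control of both doses. Further libraries were used to choose genes: 4 of cells given 9 nM EGF together with EpEX-Fc at 50 nM (the extracellular part of EpCAM fused to an immunoglobulin Fc region) and 3 of cells given Fc alone, both at 6 h. The same doses at 72 h, with 3 libraries at 9 nM and 4 at 1.8 nM, were used to compare the times. Replicates bear only a number, so p-values measure the spread between these libraries of 1 cell line, which may be technical in part.

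EGF binds the receptor tyrosine kinase EGFR, which signals through RAS and ERK and through PI3K and AKT. ERK activity induces immediate early transcription factors, feedback inhibitors of the pathway and further EGFR ligands such as amphiregulin. AKT keeps FOXO transcription factors out of the nucleus, so that genes driven by FOXO fall when growth factor is supplied, and EGFR can also lead to phosphorylation of STAT factors.

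Each library is a 3′ tag library, in which reads come from the end of the transcript. The counts on genes were 2769098, 5661599, 5227741 and 9331549 for EGFhigh replicates 1 to 4 and 7818811, 8883849, 6071393 and 6304338 for EGFlow. EGFhigh replicate 1 was thus the shallowest. In it 3 counts, taken as the floor of detection, equaled 1.08 CPM (counts scaled by library size), against 0.32 to 0.57 CPM in the other 7. These floors are scaled by the library's total alone, whereas the levels of genes in CPM also hold the TMM scaling between libraries. The share of counts on mitochondrial genes was 10.1% ± 2.93 (SD, n = 4) in EGFhigh and 10.2% ± 2.38 (SD, n = 4) in EGFlow. None of 9 library measures passed a test between the doses (exact permutation test, two-sided, lowest p = 0.114, adjusted p = 0.669 over the 9, where 0.0286 is the lowest p that 4 against 4 allows). Squamous epithelial genes were detected, among them SFN at a mean of 1471 CPM, EPCAM at 229.6 CPM and SOX2 at 52.0 CPM, whereas the basal keratins KRT5 and KRT14 were close to the floor at 1.90 and 0.55 CPM. Of markers of other cells, 4 of 10 fibroblast genes, 3 of 10 leukocyte genes and 1 of 7 endothelial genes passed the filter on low counts. The fibroblast list summed to 31.8 ± 13.03 CPM in EGFhigh and 26.5 ± 13.2 CPM in EGFlow (SD, n = 4 each), most of it from COL1A1 at a mean of 17.99 CPM. The leukocyte list summed to 2.13 ± 1.24 and 0.95 ± 0.59 CPM and the endothelial list to 1.39 ± 0.80 and 2.10 ± 1.07 CPM, and LYZ was at 0.02 CPM. A part of other cells in the results was not tested.

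One library stood apart in several genes that EGF moves. EGFlow replicate 2 had several ligand and FOXO genes at the level of untreated cells: HBEGF was at 14.8 CPM there against 85.5 to 114.9 CPM in the other EGFlow libraries and 16.3 to 23.8 CPM in untreated cells. TXNIP was at 368.8 CPM there, against 40.0 to 63.7 CPM in the other EGFlow libraries and 275.9 to 424.9 CPM in untreated cells. Other EGF-responsive genes of this library were at the level of treated cells, such as KRT6A at 114.8 CPM against 11.9 to 18.7 CPM in untreated cells. Over 462 genes that 9 nM EGF with EpEX-Fc raised against Fc in separate libraries, EGFlow replicate 2 lay a median of 0.48 log2 above the untreated mean, and the other EGFlow libraries 0.53 to 0.60. EGFhigh replicate 1 had the lowest median of all 8 treated libraries over these genes, at 0.35 log2. Main results are therefore also given without EGFlow replicate 2 where this moves them.

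No gene passed as differentially expressed between the doses at 6 h. edgeR's quasi-likelihood test found 0 DEGs (0.00%) among 15350 genes, a DEG being a gene whose log2 fold change (log2FC) exceeds 0.5 in either direction with a Benjamini-Hochberg adjusted p no higher than 0.05. The lowest adjusted p was 1. DESeq2 also called 0. At an unadjusted p under 0.05 stood 435 genes by edgeR (2.83%), 225 higher (1.47%) and 210 lower (1.37%) at 9 nM, and 452 by DESeq2. Genes without any difference would give 5%. For 293 genes (1.91%) the 4 libraries of one dose did not overlap with the 4 of the other. Leaving out any 1 of the 8 libraries also gave 0 DEGs. Without a filter on low counts, edgeR called 7 of 27643 genes, IRF1 and PARP14 higher and PIK3IP1, BCL6, FBXO32, SOX2 and TXNIP lower at 9 nM, none of which DESeq2 called.

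The precision of these values depended on the level of the gene. The 95% interval of the dose difference had a median half-width of 0.76 log2 over all genes, 0.39 over the 1874 genes at 100 CPM or more and 0.78 over the 3610 genes at 5 to 20 CPM. It lay within 1 log2 of 0 on both sides for 97.9% of the genes at 100 CPM or more, and for 50.1% of all genes tested. A change of 2-fold in either direction was thus outside the interval for nearly all highly expressed genes, but for only 46.4% of the genes at 5 to 20 CPM. The interval lay within 0.5 log2 of 0 for 12.1% of all genes tested, so that smaller changes stayed inside it for most genes. An interval is no limit of detection by the test over all genes.

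**Figure D1:**
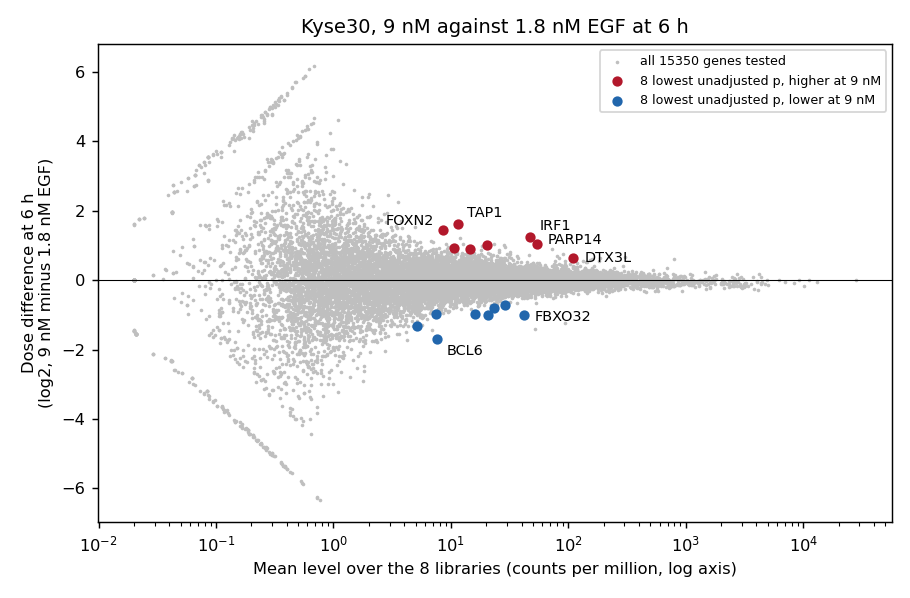
Dose difference at 6 h (log2, EGFhigh minus EGFlow, y axis) against the mean level over the 8 libraries (CPM, log x axis) of the 15350 genes tested. Red and blue points are the 8 genes higher and the 8 genes lower at 9 nM with the lowest unadjusted p at a mean of 5 CPM or more, and none of them is a DEG.

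Against untreated cells, both doses moved genes, and the 2 comparisons share the untreated libraries, so that their values are given side by side and not as separate evidence. EGFlow gave 230 DEGs (1.50%), 125 higher (0.814%) and 105 lower (0.684%), and EGFhigh gave 391 (2.55%), 206 higher (1.34%) and 185 lower (1.21%). Without EGFlow replicate 2, the former count was 268. Both counts leaned on single libraries: without untreated replicates 1, 3 and 4 in turn, EGFlow gave 76, 87 and 20 and EGFhigh 165, 179 and 113. They were 82, 108 and 91 without EGFlow replicates 1, 3 and 4, and 179 and 202 without EGFhigh replicates 2 and 3. More DEGs at 9 nM is not a test of a dose difference, for which the direct comparison stands.

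Genes that answered 9 nM EGF with EpEX-Fc in other libraries gave medians slightly further along at the higher dose. The shift was below the spread between libraries for the raised genes and close to it for the lowered genes. In these lists the parts of EGF and of EpEX-Fc cannot be told apart. The 462 genes that 9 nM EGF with EpEX-Fc raised against Fc (3.01% of genes tested) and the 232 that it lowered (1.51%) were chosen without any library of the 2 dose groups or of untreated cells. Of the raised genes, 63.6% were higher in EGFhigh than in EGFlow, against 49.2% of all genes tested, with a median dose difference of 0.06 log2 against -0.003. Of the lowered genes, 33.6% were higher, with a median of -0.11 log2. The pooled SD between libraries of a dose of their list medians was 0.12 log2 for the raised and 0.10 for the lowered genes. Against untreated cells, the raised genes had a median log2FC of 0.56 at 1.8 nM and 0.63 at 9 nM, and the lowered genes -0.60 and -0.69. With 9 nM EGF alone, 113 of the 462 were raised DEGs and 52 of the 232 lowered DEGs, against 1.34% and 1.21% of all genes. Leaving out 1 library, the median of the raised genes ran from 0.01 (without EGFhigh replicate 4, with 240 genes higher and 222 lower) to 0.14 log2 (without EGFhigh replicate 1), and that of the lowered genes from -0.14 (without EGFhigh replicate 1) to -0.06 (without EGFhigh replicate 4). No raised gene and 9 lowered genes were at an unadjusted p under 0.05 between the doses, 8 of them lower, where 2.83% of all genes were, 1.37% lower.

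**Figure D2:**
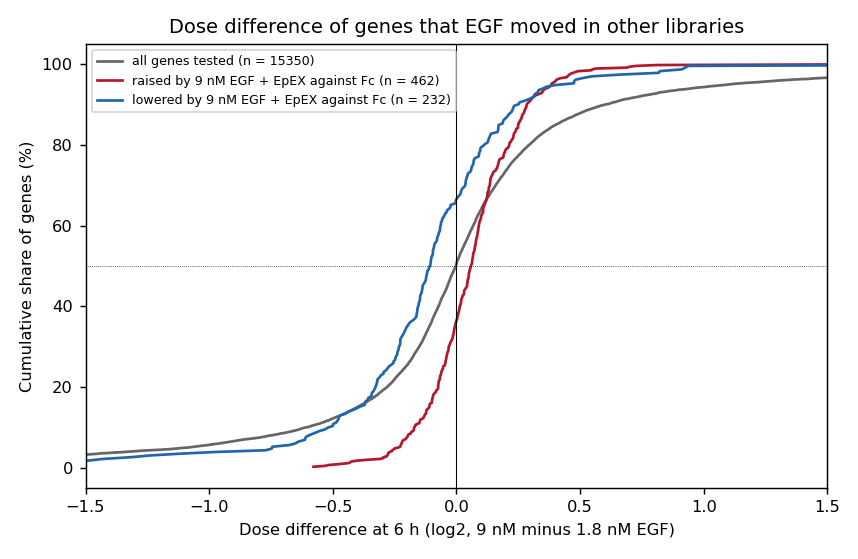
Cumulative share of genes (%, y axis) by their dose difference at 6 h (log2, EGFhigh minus EGFlow, x axis) for all genes tested and for the genes raised (n = 462) or lowered (n = 232) by 9 nM EGF with EpEX-Fc against Fc. At the midpoint the raised genes lie right of all genes and the lowered genes left, with medians of 0.06 and -0.11 log2, and both lists are narrower than all genes.

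For genes with a large response to EGF, or to 9 nM EGF with EpEX-Fc, the level was compared between the doses one by one. KRT6A, a keratin of activated keratinocytes, was at 103.7, 117.1, 107.9 and 213.8 CPM in EGFhigh, 134.9, 114.8, 93.0 and 316.5 CPM in EGFlow and 16.9, 11.9 and 18.7 CPM in untreated cells. All 8 treated libraries lay above the untreated ones and the doses overlapped, and reads of KRT6A may be shared with its near-identical paralogs. The log2FC against untreated cells was 3.38 at 1.8 nM and 3.11 at 9 nM (edgeR, adjusted p = 0.0055 and 0.0063), and the dose difference was -0.28 ± 0.53 (SE). It was -0.59 without EGFhigh replicate 4 and 0.25 without EGFlow replicate 4. AKAP12, a scaffold protein for protein kinases A and C, was at 74.8, 97.1, 64.4 and 205.5 CPM in EGFhigh, 74.4, 94.4, 63.9 and 212.4 CPM in EGFlow and 14.4, 18.4 and 32.7 CPM in untreated cells. Same-numbered libraries of the 2 doses were close to each other in this gene, replicate 4 being the highest in each. Its dose difference had a 95% interval of -0.74 to 0.73 log2, and it was -0.50 without EGFhigh replicate 4 and 0.51 without EGFlow replicate 4. SPOCD1 was at 17.3, 16.0, 17.7 and 16.5 CPM in EGFhigh, 16.6, 8.16, 17.6 and 8.13 CPM in EGFlow and at most 3.48 CPM in untreated cells, and was raised at both doses (log2FC 2.99 and 3.41, edgeR adjusted p = 0.01 and 0.0024). Its dose difference was 0.42 ± 0.50 log2, with a 95% interval of -0.60 to 1.44 that holds 0 as well as a 2-fold change. SPRR2A, a cornified envelope protein of the SPRR2 gene family, whose members are near-identical, rose by 3.05 log2 at 1.8 nM and 3.22 at 9 nM (edgeR adjusted p = 0.033 and 0.017), with a dose difference of 0.17 ± 0.61 that ran from -0.32 without EGFhigh replicate 1 to 0.46 without EGFhigh replicate 4. The intervals of KRT6A, from -1.36 to 0.80, and of SPRR2A, from -1.07 to 1.40, also hold both 0 and a 2-fold change, so that equal levels were not shown. GBP1, ADM2, KRT17 and VPS9D1-AS1, likewise among the 8 genes that 9 nM EGF with EpEX-Fc raised most, were not DEGs at either dose, and their dose differences ran from -0.58 for KRT17 to 0.70 for GBP1. Of the 6 genes it lowered most, TXNIP and PIK3IP1 are described with the FOXO targets, and the dose differences of EGR2, OTUD1, AP002800.1 and SORBS2 ran from -0.65 for SORBS2 to 0.66 for EGR2, all with a 95% interval that holds 0. Without EGFlow replicate 2 the dose difference was 0.25 for SORBS2, 1.37 for EGR2 and 1.17 for GBP1.

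**Figure D3:**
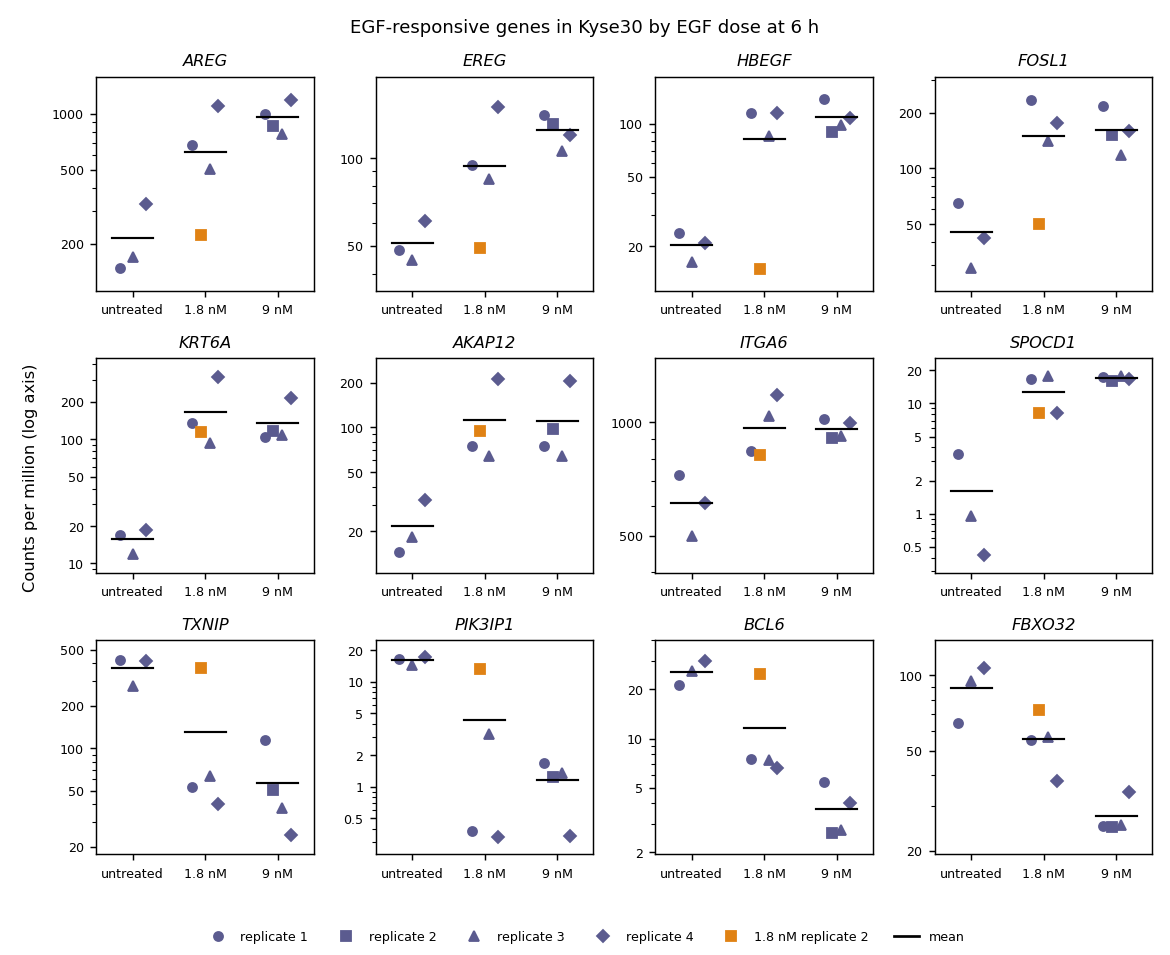
Level (CPM, log y axis) of 12 EGF-responsive genes in every 6 h library of untreated cells, EGFlow (1.8 nM) and EGFhigh (9 nM), with marker shapes for the replicate numbers, a line for the group mean and EGFlow replicate 2 in orange. In KRT6A, AKAP12, ITGA6 and SPOCD1 the libraries of both doses lie above untreated cells and overlap each other, and EGFlow replicate 2 lies near untreated cells in AREG, EREG, HBEGF, FOSL1, TXNIP, PIK3IP1 and BCL6.

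Among the receptors and their ligands, most ligands were higher at 9 nM and none passed the test. EGFR itself was at 2251, 2041, 2314 and 1988 CPM in EGFhigh and 2451, 1727, 2517 and 2658 CPM in EGFlow, with a dose difference of -0.12 log2 and a 95% interval of -0.44 to 0.20. The libraries of the 2 doses overlapped. ERBB3, a partner receptor that signals to PI3K, was lowered against untreated cells at 9 nM (log2FC -1.21, edgeR adjusted p = 0.014), had a log2FC of -0.88 at 1.8 nM (adjusted p = 0.11), and its dose difference was -0.33 ± 0.27. That difference ran from -0.54 without EGFhigh replicate 1 to -0.21 without EGFhigh replicate 4. Of 8 ligand genes tested, 6 were higher at 9 nM with a median of 0.27 log2, and 0 were at an unadjusted p under 0.05. With 1 library left out, the median ran from 0.07 without EGFlow replicate 2 (5 higher, 0 at that p) to 0.49 without EGFlow replicate 4 (7 higher, 2 at that p). AREG, which encodes amphiregulin, was at 995.9, 861.3, 779.4 and 1193 CPM in EGFhigh, 679.1, 222.5, 507.1 and 1097 CPM in EGFlow and 147.9, 169.1 and 325.6 CPM in untreated cells. The highest EGFlow library exceeded 3 of the 4 EGFhigh libraries. AREG rose at 9 nM (log2FC 2.16, edgeR adjusted p = 0.0046) and missed the threshold at 1.8 nM (log2FC 1.55, adjusted p = 0.055), and the dose difference was 0.61 ± 0.38, or 0.34 ± 0.39 without EGFlow replicate 2 and 1.03 without EGFlow replicate 4. EREG and HBEGF, the genes of epiregulin and heparin-binding EGF, were likewise DEGs at 9 nM only (edgeR adjusted p = 0.032 for each), yet their dose differences were 0.40 ± 0.31 and 0.40 ± 0.55, and 0.19 and 0.06 without EGFlow replicate 2. EREG differed by 0.71 without EGFlow replicate 4, and AREG and EREG were the 2 ligands at an unadjusted p under 0.05 without that library. Without EGFlow replicate 2, AREG and HBEGF were DEGs at 1.8 nM as well (log2FC 1.84 and 2.39, edgeR adjusted p = 0.016 and 0.036), and EREG was not (1.10, adjusted p = 0.088). No ligand gene was a DEG between the doses, with all libraries or with any 1 left out, and the values of AREG and EREG depended on which EGFlow library was left out.

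Among feedback inhibitors of ERK and immediate early factors, no gene was a DEG between the doses. Of 25 feedback genes, 18 were higher at 9 nM (median 0.13 log2, from 0.05 without EGFlow replicate 2 to 0.18 without EGFlow replicate 3), with 0 higher and 1 lower at an unadjusted p under 0.05, the latter being IL17RD at -0.995 ± 0.45, where 1.37% of all genes were lower at that p. SPRY4, a Sprouty inhibitor of RAS signaling, was at 18.4, 11.9, 19.1 and 13.8 CPM in EGFhigh and at 10.1, 5.01, 10.9 and 10.5 CPM in EGFlow, without overlap, at 0.79 ± 0.50 log2, or 0.59 ± 0.54 without EGFlow replicate 2 and 0.91 without EGFhigh replicate 2. Its untreated libraries were at 3.30, 5.76 and 3.23 CPM. DUSP6, a phosphatase of ERK, had a dose difference of 0.02 ± 0.27. Of 35 immediate early and AP-1 genes, 24 were higher at 9 nM (median 0.11 log2) and 0 were at an unadjusted p under 0.05. The median ran from 0.06 without EGFlow replicate 2, with 22 higher, to 0.26 without EGFlow replicate 4, with 25 higher and 1 at that p. ETS1, ATF3 and EGR1 were DEGs at both doses. ETS1 rose by 2.51 log2 at 1.8 nM and 2.58 at 9 nM, ATF3 had a log2FC of -2.05 and -1.79 and EGR1 of -1.20 and -1.19 (edgeR, highest adjusted p = 0.038), with dose differences of 0.07, 0.25 and 0.01. With 1 library left out these differences ran from -0.22 to 0.35 for ETS1, from -0.18 to 0.46 for ATF3 and from -0.13 to 0.21 for EGR1. FOSB, an AP-1 subunit, was a DEG at 9 nM (log2FC -1.78, adjusted p = 0.0098) and not at 1.8 nM (-1.15, adjusted p = 0.13), with a dose difference of -0.63 ± 0.38, which ran from -1.045 without EGFhigh replicate 1 to -0.41 without EGFhigh replicate 2. For EGR1 the 95% interval of the dose difference was -0.58 to 0.60. FOSL1, another AP-1 subunit, was at 118.4 to 217.2 CPM in EGFhigh and 50.02 to 235.3 CPM in EGFlow.

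The 8 genes higher at 9 nM with the lowest unadjusted p at a mean of 5 CPM or more were TAP1, ZNF652, DTX3L, PARP14, PARP9, RAB20, FOXN2 and IRF1. Of these, IRF1 is in the list of interferon-stimulated genes used here, and TAP1, DTX3L, PARP14 and PARP9 are not. IRF1 encodes a transcription factor of the interferon response, TAP1 a peptide transporter of antigen presentation, and DTX3L and PARP9 form a ubiquitin ligase complex that, like PARP14, is induced by interferon. The promoters of 3 of them are shown because they hold letters that such factors are known to bind. They are the 250 bases before the transcription start in RefSeq (build GRCh38.p14), written along the gene strand, with TTCNNNGAA (a STAT-type motif, the same on both strands) and GAAA, any 2 bases and GAAA (an IRF-type motif, either strand) in capitals, the 2 copies in TAP1 overlapping each other.
IRF1 (chr5:132490774-132491023, minus strand): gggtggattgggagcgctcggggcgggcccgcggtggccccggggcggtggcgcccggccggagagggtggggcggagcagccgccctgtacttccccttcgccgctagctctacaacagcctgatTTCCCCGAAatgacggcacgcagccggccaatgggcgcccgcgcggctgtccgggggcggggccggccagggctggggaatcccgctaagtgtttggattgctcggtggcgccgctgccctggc
PARP14 (chr3:122680589-122680838, plus strand): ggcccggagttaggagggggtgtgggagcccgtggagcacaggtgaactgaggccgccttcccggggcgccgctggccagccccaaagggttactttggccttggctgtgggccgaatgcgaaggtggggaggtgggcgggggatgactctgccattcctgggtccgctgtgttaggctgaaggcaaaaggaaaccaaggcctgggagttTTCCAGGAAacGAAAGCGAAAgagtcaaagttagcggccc
TAP1 (chr6:32853705-32853954, minus strand): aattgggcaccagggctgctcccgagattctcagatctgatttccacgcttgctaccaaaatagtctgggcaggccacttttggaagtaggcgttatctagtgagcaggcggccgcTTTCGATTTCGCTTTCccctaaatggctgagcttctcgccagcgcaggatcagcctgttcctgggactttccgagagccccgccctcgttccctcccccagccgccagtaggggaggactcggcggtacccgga
Of the 6 of these 8 genes with a promoter entry, 3 held TTCNNNGAA in a 250-base promoter (IRF1, PARP14 and TAP1, the latter at another start) and 3 held the IRF-type motif (PARP14, PARP9 and TAP1), where 6.57% and 3.02% of all 35116 promoter entries held them. Of 10317 genes tested that have a promoter entry, 7.48% and 3.26% held them in at least 1 entry. TTCNNNGAA was also found in BCL6, a gene lower at 9 nM. A match is no evidence of binding.

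IRF1 was at 84.6, 49.9, 81.5 and 51.6 CPM in EGFhigh, 33.8, 42.9, 19.7 and 16.6 CPM in EGFlow and 46.9, 34.9 and 25.3 CPM in untreated cells. Every EGFhigh library lay above every EGFlow library, and the untreated libraries also lay below all of EGFhigh. The dose difference was 1.23 ± 0.41 log2 (95% interval 0.40 to 2.06), and it did not pass the test over all genes (edgeR, unadjusted p = 0.0045, adjusted p = 1). PARP14 was at 76.5, 70.4, 75.5 and 67.5 CPM in EGFhigh and 47.6, 41.5, 27.8 and 23.2 CPM in EGFlow, without overlap, with 33.2, 48.4 and 47.98 CPM in untreated cells. PARP9 was at 26.9, 31.8, 29.3 and 20.5 CPM in EGFhigh and 4.43, 18.4, 17.7 and 12.6 CPM in EGFlow, likewise without overlap. DTX3L was at 112.5, 141.7, 122.5 and 158.5 CPM in EGFhigh, 88.8, 100.6, 80.8 and 77.2 CPM in EGFlow and 73.5, 78.1 and 83.9 CPM in untreated cells. Among the 8 it was the only DEG of EGFhigh against untreated cells (log2FC 0.77, edgeR adjusted p = 0.042), at 0.15 log2 for EGFlow. TAP1 was at 24.8, 20.5, 18.3 and 5.85 CPM in EGFhigh and 3.16, 10.1, 6.52 and 2.32 CPM in EGFlow, so that EGFhigh replicate 4 lay within the EGFlow range. All of these genes were named for a low p in this same comparison. Their separation is thus a description and no support for a difference, and 1.91% of all genes tested did not overlap. The log2FC of EGFlow against untreated cells was -0.33 for IRF1, -0.30 for PARP14 and -0.55 for TAP1, and none of them passed the test (edgeR, lowest adjusted p = 0.70). Without EGFlow replicate 2, the dose differences of IRF1 and TAP1 were 1.51 and 2.11 log2, and without EGFlow replicate 4 they were 1.05 and 1.375.

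The list of interferon-stimulated genes, which holds IRF1 of the 8 genes above, varied between libraries, with a pooled SD of 0.56 log2 of the list median. Of 26 tested, 18 were higher at 9 nM, with a median of 0.23 log2 and 2, IRF1 among them, at an unadjusted p under 0.05, against 1.47% of all genes. With all libraries its antiviral effectors went both ways, with dose differences of 0.59 ± 0.42 for OAS3, 0.48 ± 0.43 for IFIT2, 0.02 ± 0.35 for ISG15, -0.22 ± 0.43 for OAS1 and -0.38 ± 0.69 log2 for IFIT1, and none of these 5 passed the test. Without EGFlow replicate 2 they were 1.08, 0.54, 0.32, 0.38 and -0.12. In the list, 23 genes were then higher and 2 lower, with 3 at an unadjusted p under 0.05. Without EGFhigh replicate 2, 11 were higher and 15 lower. The list summed to 857.6, 980.0, 684.2 and 641.3 CPM in EGFhigh, 628.6, 1049, 508.1 and 402.8 CPM in EGFlow and 764.9, 614.0 and 549.4 CPM in untreated cells. Its spread between libraries of 1 group was as wide as the range between the doses, and with 1 library left out its median dose difference ran from -0.07 without EGFhigh replicate 2 to 0.79 without EGFlow replicate 2.

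**Figure D4:**
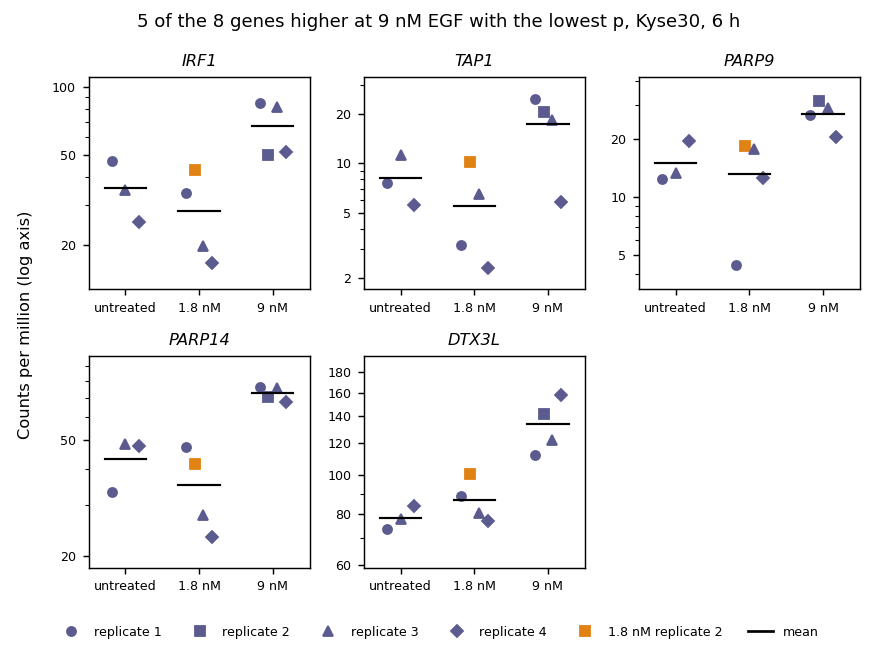
Level (CPM, log y axis) of IRF1, TAP1, PARP9, PARP14 and DTX3L, 5 of the 8 genes higher at 9 nM with the lowest unadjusted p, in every 6 h library of untreated cells, EGFlow (1.8 nM) and EGFhigh (9 nM), with marker shapes for the replicate numbers, a line for the group mean and EGFlow replicate 2 in orange. In IRF1, PARP9, PARP14 and DTX3L every EGFhigh library lies above every EGFlow library, and in TAP1 the groups overlap. The genes were chosen by their p in this comparison, and 1.91% of all genes tested did not overlap.

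The genes lower at 9 nM included targets of FOXO factors. The 8 with the lowest unadjusted p included BCL6, MBNL2, ESPL1, HBP1, FBXO32, SH3BGRL2 and KIZ. Of 19 FOXO targets tested, 14 were lower at 9 nM with a median of -0.24 log2, and 6 (BCL6, TXNIP, PIK3IP1, FBXO32, SESN1 and PDK4) were lower at an unadjusted p under 0.05, against 1.37% of all genes. The list median was also taken by library, as the deviation from the mean of both doses and untreated cells. It ran from -0.72 to -0.14 log2 in EGFhigh and from -0.40 to 0.38 in EGFlow, so that the doses overlapped. Against untreated cells the median log2FC of the list was -0.72 at 1.8 nM and -1.21 at 9 nM. DEGs were 1 lower (YPEL3) and 1 higher (TRIB1) at 1.8 nM, and 7 lower (BCL6, TXNIP, PIK3IP1, FBXO32, CCNG2, ERBB3 and YPEL3) and 1 higher (TRIB1) at 9 nM. Of all genes, 0.684% were lowered and 0.814% raised DEGs at 1.8 nM, and 1.21% and 1.34% at 9 nM. Without EGFlow replicate 2, 10 were lower at 9 nM, the median was -0.14 and 2 were at an unadjusted p under 0.05, and the median was lowest at -0.33 without EGFhigh replicate 3.

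BCL6, a transcriptional repressor, was at 5.44, 2.63, 2.73 and 4.02 CPM in EGFhigh, 7.47, 24.8, 7.36 and 6.64 CPM in EGFlow and 21.2, 26.1 and 29.7 CPM in untreated cells. The groups at the 2 doses did not overlap, and EGFlow replicate 2 was at the untreated level. The dose difference was -1.69 ± 0.47 log2 (95% interval -2.64 to -0.75, edgeR unadjusted p = 8e-04, adjusted p = 1), and -0.97 ± 0.46 without that library. FBXO32, an F-box protein known from muscle atrophy, was at 25.2, 24.9, 25.4 and 34.4 CPM in EGFhigh, 55.4, 73.0, 56.7 and 37.8 CPM in EGFlow and 64.6, 94.5 and 107.2 CPM in untreated cells. Its 3 groups were ordered by dose with overlap only between EGFlow and untreated cells, and the dose difference of -1.02 ± 0.37 was -0.84 ± 0.39 without EGFlow replicate 2. TXNIP, an inhibitor of thioredoxin and of glucose uptake, was at 114.5, 50.2, 37.8 and 24.3 CPM in EGFhigh and 52.9, 368.8, 63.7 and 40.0 CPM in EGFlow. Apart from the 1 EGFlow library at the untreated level the doses overlapped fully, and the dose difference of -1.24 ± 0.50 was 0.10 ± 0.44 without it and -1.81 without EGFhigh replicate 1. PIK3IP1, an inhibitor of PI3K, was at 1.70, 1.23, 1.36 and 0.34 CPM in EGFhigh, 0.38, 13.3, 3.18 and 0.33 CPM in EGFlow and 14.4 to 17.1 CPM in untreated cells. EGFlow replicates 1 and 4 and EGFhigh replicate 4 were at or under the floor of 3 counts. Its dose difference of -2.05 ± 0.72 was -0.24 ± 0.71 without EGFlow replicate 2. HBP1, a repressor of cell cycle genes, had a dose difference of -0.98 ± 0.35, or -0.62 ± 0.36 without that library. SOX2, named because it was called without the filter on low counts and so chosen after its values were seen, was at 12.6, 34.8, 19.3 and 46.5 CPM in EGFhigh and 31.5, 184.8, 48.2 and 38.7 CPM in EGFlow, and its dose difference of -1.40 ± 0.56 was -0.43 ± 0.55 without EGFlow replicate 2. BCL6, FBXO32 and HBP1 were named for a low p in this same comparison, so that their distance from 0 is a description and no support for a difference. Without the library that stood apart, BCL6, TXNIP and PIK3IP1 were lowered DEGs at 1.8 nM too (log2FC -1.83, -2.83 and -3.65, edgeR adjusted p = 0.025, 0.0016 and 0.0016).

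The promoter of TXNIP, 1 of the 5 FOXO targets below an unadjusted p of 0.05 with a promoter entry, held the FOXO-type motif GTAAACA, here in capitals, and is shown as the 250 bases before its RefSeq start on the gene strand. The motif was searched on both strands and stood in 2.98% of all promoter entries and, among these 5 genes, in TXNIP alone. It was also found in HBP1 and KIZ.
TXNIP (chr1:145996580-145996829, minus strand): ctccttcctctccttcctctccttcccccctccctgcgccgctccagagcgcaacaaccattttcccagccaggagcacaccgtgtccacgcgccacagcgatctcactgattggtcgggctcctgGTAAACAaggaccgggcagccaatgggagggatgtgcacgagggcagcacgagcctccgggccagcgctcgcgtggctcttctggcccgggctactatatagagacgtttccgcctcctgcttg

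Other genes of the lower group had other known roles. MBNL2, a splicing regulator, was at 21.4, 16.0, 24.4 and 25.9 CPM in EGFhigh and 34.4, 45.2, 32.95 and 31.9 CPM in EGFlow. ESPL1, the protease that separates sister chromatids, was at 2.38, 2.28, 3.51 and 3.44 CPM in EGFhigh and 7.59, 9.68, 8.03 and 4.32 CPM in EGFlow. Both were named for a low p in this same comparison, and neither overlapped between the doses. Their dose differences were -0.72 ± 0.25 and -1.33 ± 0.46 log2. Untreated cells were at 30.2, 36.1 and 21.2 CPM in MBNL2, overlapping with both doses, and at 8.34, 7.79 and 5.05 CPM in ESPL1, overlapping with EGFlow and above all of EGFhigh. SH3BGRL2 and KIZ differed by -0.80 ± 0.29 and -0.97 ± 0.35, with overlap, and SH3BGRL2 by -0.51 ± 0.30 without EGFlow replicate 2. KIZ ran from -1.62 without EGFhigh replicate 4 to -0.67 without EGFhigh replicate 3. Among the higher genes, ZNF652, RAB20 and FOXN2 differed by 0.91 ± 0.26, 0.94 ± 0.31 and 1.43 ± 0.48. RAB20 was lowered against untreated cells at 1.8 nM (log2FC -1.27, edgeR adjusted p = 0.035) and had a log2FC of -0.33 at 9 nM. ZNF652 was at -0.91 (edgeR adjusted p = 0.091) and 0.004. For 9 nM EGF with EpEX-Fc against Fc, RAB20 was a lowered DEG (log2FC -1.37, edgeR adjusted p = 0.011). The log2FC there was -0.18 for ZNF652, -0.16 for FOXN2, -0.03 for PARP9 and 0.07 for PARP14. It was 0.51 for TAP1, 0.67 for DTX3L and 0.94 for IRF1, and none of these was a DEG there.

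Larger programs moved by EGF at 6 h held no DEG between the doses. Of 103 ribosome biogenesis genes, 57 were higher and 46 lower at 9 nM (median 0.02 log2, from -0.04 without EGFhigh replicate 2 to 0.07 without EGFhigh replicate 1), whereas against untreated cells their median log2FC was 0.57 at 1.8 nM, with 14 DEGs, and 0.60 at 9 nM, with 22 DEGs, all higher, against medians of -0.04 and -0.05 and raised shares of 0.814% and 1.34% over all genes tested. TSR1, needed to mature the small ribosomal subunit, was at 139.4, 160.8, 167.7 and 123.5 CPM in EGFhigh, 160.6, 164.9, 161.4 and 130.3 CPM in EGFlow and 82.7, 77.0 and 66.6 CPM in untreated cells. Both doses lay above untreated cells and overlapped each other, and the 95% interval of the dose difference was -0.41 to 0.29 log2. DDX21, a nucleolar RNA helicase, rose by 1.15 and 1.32 log2, and RRP9 by 1.30 and 1.37. Genes of the G2 and M phases of the cell cycle were slightly lower at 9 nM, 45 of 54 with a median of -0.14 log2 and 0 at an unadjusted p under 0.05, and against untreated cells 3 were lowered DEGs at 1.8 nM and 11 at 9 nM, where 0.684% and 1.21% of all genes were. Without EGFlow replicate 2 the median was -0.07, and without EGFlow replicate 4 it was -0.21. By library, the list's median deviation ran from -0.36 to -0.05 log2 in EGFhigh and from -0.35 to 0.08 in EGFlow, with overlap. Genes of S phase were lower at 9 nM for 30 of 43 (median -0.09 log2), but 24 of 43 were higher without EGFlow replicate 2 (median 0.013) and 23 of 43 without EGFhigh replicate 4 (median 0.020), while 37 of 43 were lower without EGFlow replicate 4 (median -0.21).

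Genes of EMT and of the hemidesmosome, which the study followed at 72 h, held no DEG between the doses at 6 h. Of 17 EMT factors and adhesion genes, 9 were higher and 8 lower at 9 nM and 0 were at an unadjusted p under 0.05. These were 5 and 12 without EGFhigh replicate 1, and 12 and 5 without EGFhigh replicate 4. SNAI2, a repressor of epithelial genes, differed by 0.17 ± 0.44 log2, CDH1 (E-cadherin) by -0.13 ± 0.38 and VIM (vimentin) by 0.34 ± 0.39. With 1 library left out these ran from -0.09 (EGFlow replicate 2) to 0.42 (EGFlow replicate 1) for SNAI2, from -0.28 (EGFhigh replicate 1) to 0.05 (EGFhigh replicate 4) for CDH1 and from 0.02 (EGFhigh replicate 1) to 0.57 (EGFhigh replicate 4) for VIM. ITGA6, the integrin chain that pairs with ITGB4, was at 1016, 906.0, 916.7 and 995.0 CPM in EGFhigh, 838.6, 815.7, 1037 and 1177 CPM in EGFlow and 724.3, 499.6 and 609.6 CPM in untreated cells. Both doses lay above untreated cells and overlapped each other. ITGA6 rose by 0.66 log2 at 1.8 nM and 0.65 at 9 nM (edgeR adjusted p = 0.027 and 0.02), with a dose difference of -0.01 ± 0.15, and ITGB4 itself differed by 0.05 ± 0.26. The 171 genes of the study's EGFR-mediated EMT signature, which the study chose on libraries of this series and which are no independent evidence of direction, had a median dose difference of -0.06 log2 at 6 h (-0.03 without EGFlow replicate 2), with 66 higher and 105 lower, where 49.2% of all genes were higher, and 1 at an unadjusted p under 0.05, where 2.83% of all genes were. The 152 genes tested of the study's EMT hallmark list leaned the other way, with 91 higher and 61 lower (median 0.06 log2), and 2 higher and 0 lower at an unadjusted p under 0.05. Their median ran from 0.004 without EGFhigh replicate 1, with 78 higher, to 0.12 without EGFlow replicate 3, with 100 higher, and 4 were at that p without EGFhigh replicate 4. Of the 87 genes tested of its pEMT (partial EMT) list, 40 were higher and 47 lower (median -0.02), and 48 were higher without EGFlow replicate 4.

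The same doses were far apart at 72 h, in libraries that share no sample with those at 6 h. There, 573 genes were DEGs between 9 and 1.8 nM EGF (3.73%), 311 higher (2.03%) and 262 lower (1.71%), and 292 without EGFlow replicate 2 of 72 h. The 311 genes had a median dose difference of 1.18 log2 at 72 h, by which they were chosen, and of 0.02 at 6 h, where 55.3% were higher. The 262 genes had a median of -1.56 at 72 h and -0.07 at 6 h. Without EGFlow replicate 2 of 6 h the 6 h medians turned to -0.010 and 0.020, with 144 of the 262 higher, and that of the former was -0.017 without EGFhigh replicate 4. Without EGFlow replicate 4 they were 0.06 and -0.10, with 196 of the 310 then tested higher and 167 of the 262 lower. The difference between the times was tested directly as an interaction, and it passed for 117 genes (0.762%), or 65 without EGFhigh replicate 1 or replicate 3 of 6 h and 49 without EGFlow replicate 2 of 72 h. ITGB4 at 72 h was at 3123, 4357 and 4272 CPM in EGFhigh and 1317, 777.8, 1320 and 1727 CPM in EGFlow. Every EGFhigh library was thus above every EGFlow library at 72 h, and the dose difference exceeded that at 6 h by 1.56 ± 0.38 log2 (edgeR adjusted p = 0.031). For SPRR2A it did so by 4.86 ± 0.95, whereas FN1, which encodes fibronectin, was lower at 9 nM at 72 h and differed between the times by -3.51 ± 0.79 (edgeR adjusted p = 0.0044 and 0.018). RAB20, higher at 9 nM at 6 h, differed between the times by -1.75 ± 0.45 (adjusted p = 0.05). IRF1, PARP14, BCL6 and FBXO32 did not pass this test, and their dose differences at 72 h were 0.29 for IRF1, 0.50 for PARP14, -0.12 for BCL6 and 0.15 for FBXO32.

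**Figure D5:**
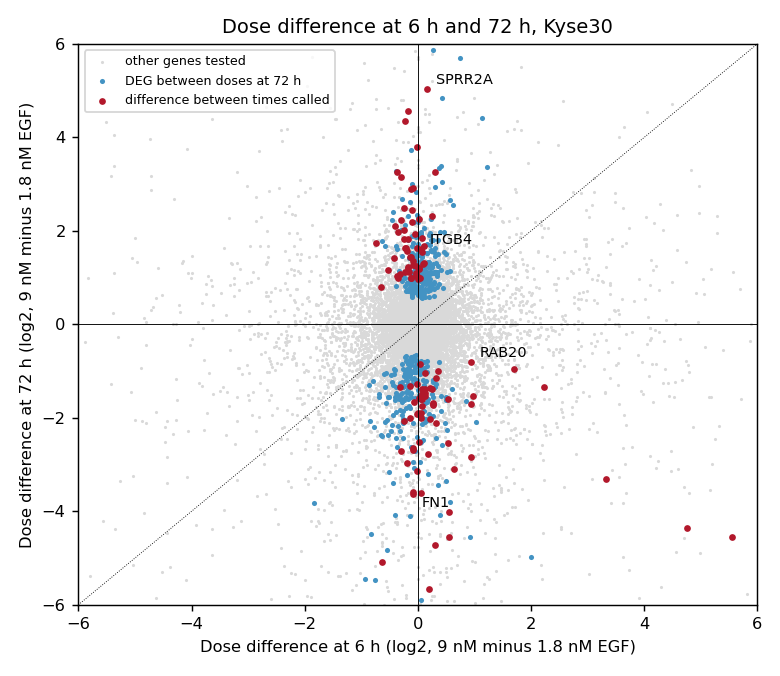
Dose difference (log2, EGFhigh minus EGFlow) at 6 h (x axis) and at 72 h (y axis) of the genes tested, with DEGs between the doses at 72 h in blue, genes whose dose difference differed between the times in red, a dotted line of equal values and 41 genes outside the axes. Red and blue points spread along the vertical axis near 0 at 6 h, as ITGB4, SPRR2A and FN1 do.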

How the data were processed

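The deposited counts are whole numbers of reads per gene for each library. Per the labels and the study's methods, libraries were made with the QuantSeq 3′ FWD kit, and the submitters' processing notes name STAR, HTSeq, GRCh38 and hg38, while versions are not given in the sources used here. Rows that name no gene were left out of library sizes, and non-unique reads, which belong to them, averaged 33.3% of reads in EGFhigh and 31.9% in EGFlow. Symbols were matched by identifier for 58275 of 58395 genes.

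Genes were filtered with filterByExpr (minimum count 10, minimum total 15), scaled by TMM and fitted with edgeR 4.0.16 in R 4.3.3, in 1 quasi-likelihood model over the 43 Kyse30 libraries and their 13 conditions. The p-values were adjusted by Benjamini-Hochberg over all genes tested, and DEGs needed a log2FC beyond 0.5 in either direction at an adjusted p no higher than 0.05, the limits the study set. SE is the log2FC divided by the square root of F, and intervals are at 95%. CPM of genes are counts scaled by the total on genes and its TMM factor, and floors in CPM are scaled by the total alone. DESeq2 1.42.0 was an alternative. Cell cycle lists came from Seurat 5.3.0. The model was tested on simulated data. Library measures were compared by exact permutation. Depth was 2769098 to 9331549 counts in the 8 dose libraries and 1944948 to 11759799 over all Kyse30 libraries, and floors and intervals of single libraries cover counting error only.

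Genes named were the 8 lowest unadjusted p in each direction of the dose comparison at a mean of 5 CPM or more, the 8 highest and 6 lowest log2FC among DEGs of 9 nM EGF with EpEX-Fc against Fc, and members of the gene lists. Members and lists were chosen with earlier results of these data known. Alternatives were another test, scaling, filter, control, block, spread estimate and fit, and each library left out. Some genes that the rule names are not reported here.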

Additional observations from a re-analysis of the deposited data

Results flagged for a closer look

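In 17 of 158 groups of 4 libraries tested, 1 library lay far from the other 3. A rate of about 1 in 20 by chance holds for independent groups that were not chosen by their values. These groups share libraries, and some genes were named for their values, so that no excess over that rate can be read. EGFlow replicate 2 was the highest in BCL6 (24.8 CPM), TXNIP (368.8 CPM), HBP1 (34.5 CPM) and SOX2 (184.8 CPM) and the lowest in SPRY4 (5.01 CPM). EGFlow replicate 4 was the highest in ITGB4 (1181 CPM) and the lowest in TSR1 (130.3 CPM). EGFhigh replicate 1, the shallowest library, was the highest in SORBS2 (6.12 CPM), ETS1 (59.8 CPM) and ATF3 (52.0 CPM). EGFhigh replicate 4 was the highest in FBXO32 (34.4 CPM), KRT6A (213.8 CPM) and KRT17 (16.4 CPM) and the lowest in FN1 (20.1 CPM). At 72 h, EGFlow replicate 2 was the lowest in MBNL2 (20.6 CPM), replicate 4 the highest in KRT6A (125.6 CPM) and replicate 1 the highest in HBEGF (128.4 CPM).

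The dose difference differed between 72 h and 6 h for 117 genes by a test of the difference itself (edgeR, adjusted p of at most 0.05). Of genes named here these were RAB20 at -1.75 log2, SPRR2A at 4.86, ITGB4 at 1.56 and FN1 at -3.51.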

How the results depend on the processing

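The count of DEGs between the doses at 6 h was 0 under every setting run except without a filter on low counts, where it was 7 (edgeR), and it was 0 with each of the 8 libraries left out. Genes at an unadjusted p under 0.05 numbered 940 without that filter, 171 at a mean of at least 5 CPM, 266 with only the groups compared in the fit and 272 with only the 6 h libraries, and from 337 to 521 with 1 library left out. DEGs of EGFlow against untreated cells numbered 413 by DESeq2, 399 without the filter, 359 with only the groups compared, 752 with untreated and Fc libraries together as control, and from 20 to 268 with 1 library left out. Those of EGFhigh numbered 673 by DESeq2, 1069 with the joint control, and from 113 to 327 with 1 library left out. Between the doses at 72 h there were 241 with only the groups compared and from 292 to 532 with 1 library left out. The difference between the times passed for 200 genes by DESeq2, 308 without the filter and from 49 to 139 with 1 library left out. For each of these the cause was not tested. With 1 library left out, a setting partly chosen after seeing the data, the median dose difference ran from -0.073 to 0.79 log2 for the interferon list, from -0.33 to -0.14 for the FOXO list and from -0.21 to -0.07 for the G2/M list. The 7 genes that passed the test without the filter are named with the dose comparison, and no result that passed a test changed direction.

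With the replicate number as a block, EGFlow gave 417 DEGs, EGFhigh 636 and the difference between the times 200, while the doses at 6 h gave 0 DEGs and 502 genes at an unadjusted p under 0.05. Deviations of same-numbered libraries correlated at 0.08, 0.11, 0.10 and 0.19 for replicates 1 to 4, so not every pair was over 0.1 and the libraries were taken to share only a number. All 8 libraries correlated best with their own number, a hint from the data and not from the design. The half-width of the 95% interval of the dose difference had a median of 3.002 log2 for genes under 1 CPM and 1.57 at 1 to 5 CPM. The part of depth in this was not tested.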
